A study of Mus musculus with 8 samples.

Results

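The LIF receptor chains, the kinase and the transcription factor below them, and 4 of their targets or naive-state companions were described at the RNA level in mouse embryonic stem cells exposed to an inhibitor of SUMOylation. The members were the rows of the count table whose Ensembl identifier maps to Lifr, Il6st, Jak1, Stat3, Socs3, Pim1, Gbx2 and Tcl1 in the GENCODE M21 annotation. They were 8 of the 36920 genes in the table, and all 8 were among the 19173 genes with enough reads to be tested.

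Leukaemia inhibitory factor (LIF) is the cytokine that keeps mouse embryonic stem cells self-renewing in serum. It binds the receptor chain encoded by Lifr, which pairs with gp130, the shared signalling chain encoded by Il6st. The kinase JAK1 then phosphorylates the receptor tails and STAT3, which moves to the nucleus and activates its targets. Socs3, a classic STAT3 target, encodes a feedback inhibitor of JAK activity on gp130. Pim1 encodes a serine/threonine kinase, Gbx2 a homeobox transcription factor that can sustain self-renewal when overexpressed, and Tcl1 a co-activator of the kinase AKT. Tcl1 has been described as a target of OCT4.

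Read counts came from 8 RNA sequencing libraries of R1 cells, an established line of mouse embryonic stem cells kept in serum with added LIF, in 4 groups of 2. ML-792, a selective inhibitor of the enzyme that activates SUMO, was given for 48 h after D1 and for 48 h again after D8, and its labelled dose is 2.5 mM. D1 cells were labelled control and had not been exposed. D3 cells were labelled ML-792 and closed the first exposure, D8 cells were labelled control but had been through that exposure and were taken 5 days after D3, and D10 cells were labelled ML-792 and closed the second. All groups share the line and the medium with LIF. No library without ML-792 was analysed at D3 or D10, so the inhibitor and 48 h of further culture cannot be told apart. D1 replicate 2 has D1 in its title and D0 in its time tag, and was kept at D1. No label says that replicates are separate cultures, so p-values measure the spread between these samples, which may be technical.

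The libraries held 21040992 to 40835518 reads in genes. Of 7 markers of embryonic stem cells (Pou5f1, Sox2, Nanog, Zfp42, Utf1, Dppa5a and Esrrb), all were expressed in every group. Their summed level, in CPM (reads per library put on 1 common total with TMM factors), was 4849 to 5366 in D1 cells and 4964 to 5523 in D8 cells, against 3251 to 3450 in D3 cells and 2521 to 2819 in D10 cells. The summed stem cell markers were therefore lower in the 4 ML-792 libraries too, with no overlap with the controls. Sox2 alone did not fall with the sum. Its mean was 325 CPM in D1 cells, 349 in D3 cells, 375 in D8 cells and 376 in D10 cells. Of the primitive endoderm list, all 7 were expressed, summing to 17.9 to 23.0 CPM in D1 cells, 29.5 to 44.1 in D3 cells, 118 to 172 in D8 cells and 103 to 118 in D10 cells. The trophoblast list summed to 56.6 to 57.8 CPM in D1 cells, 39.9 to 40.6 in D3 cells, 98.9 to 288 in D8 cells and 51.9 to 168 in D10 cells, nearly all from Krt8, Krt18 and Tfap2c, with Elf5, Hand1, Cdx2 and Gata3 near 0. Fibroblast markers summed to 22.5 to 40.3 CPM over the libraries, with Col3a1, Lum, Dcn and Postn near 0. Blood and endothelial markers summed to 68.1 to 123 CPM, nearly all from Pecam1. The part of any of these cells in the results was not tested, and in bulk RNA fewer cells of a type and less RNA per cell cannot be told apart. D8 replicate 2 stood apart in composition: the higher the GC content of a coding gene, the more this library exceeded the average of the 8 (Spearman rho 0.548 over 14693 genes, against -0.341 to 0.115 for the other libraries). Values of the members at D10 against D8, D8 against D3 and D8 against D1 are therefore also given without it. The GC trend also differed between ML-792 and control libraries. Its rho was -0.318 and -0.297 in D3 cells and -0.341 and 0.013 in D10 cells. In D1 cells it was -0.076 and 0.115, and in D8 replicate 1 it was 0.104. The part of GC content in the differences between ML-792 and control libraries was not tested.

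Promoter sequences are shown for the 3 members that fell in both exposures, Socs3, Gbx2 and Tcl1. They come from RefSeq on GRCm38.p6 and run 5′ to 3′ on the gene's own strand, which is the minus strand for each. Bases that GENCODE M21 places in an exon of the gene itself are left out, but exons of other genes are not. The whole Gbx2 stretch lies within the exon of D130058E05Rik, a noncoding transcript on the opposite strand. Capitals mark matches to the spacing variants of the STAT palindrome, TTCNNNGAA and TTCNNNNGAA.
Socs3, chr11:117969452-117969616: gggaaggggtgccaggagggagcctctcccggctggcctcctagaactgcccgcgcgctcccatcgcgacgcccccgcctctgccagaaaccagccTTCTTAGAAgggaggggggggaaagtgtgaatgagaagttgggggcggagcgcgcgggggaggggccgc
Gbx2, chr1:89931180-89931426: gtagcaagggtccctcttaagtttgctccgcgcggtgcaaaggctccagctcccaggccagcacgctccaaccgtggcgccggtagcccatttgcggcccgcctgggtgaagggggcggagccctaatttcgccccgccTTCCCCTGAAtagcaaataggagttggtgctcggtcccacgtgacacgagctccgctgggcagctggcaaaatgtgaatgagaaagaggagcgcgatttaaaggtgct
Tcl1, chr12:105222794-105222987: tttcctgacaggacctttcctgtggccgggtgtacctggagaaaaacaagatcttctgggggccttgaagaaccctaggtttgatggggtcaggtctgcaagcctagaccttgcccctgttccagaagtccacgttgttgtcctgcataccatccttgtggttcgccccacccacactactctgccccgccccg
All 8 members matched the RefSeq promoter table, with 10 windows of 300 bases, since Lifr and Pim1 have 2 starts each. Searched on both strands, TTCNNNGAA was found in the Socs3 window alone, where its first base lies 154 bases upstream of the RefSeq start. TTCNNNNGAA was found in the Gbx2 window alone, 111 bases upstream. The Tcl1 window held neither. Of 32851 windows of 27025 genes, 8.30% hold TTCNNNGAA and 6.95% hold TTCNNNNGAA. The octamer ATGCAAAT, bound by OCT4, was in none of the members' windows and in 1.74% of all windows. A match describes letters in the window and is no evidence of binding, and an absent match says nothing of STAT3 or OCT4 at these genes. The printed Socs3 stretch lies between alternative first exons of that gene in GENCODE M21, where the coding transcript starts at 117969186, 180 bases downstream of the RefSeq start.

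The receptor chains and the kinase were compared first, to ask whether the machinery that senses LIF kept its level through the exposures. None of Lifr, Il6st, Jak1 and Stat3 passed the test in either exposure, although each had a lower mean in the ML-792 group both times. At an unadjusted p under 0.05 stood Lifr in the first and Lifr and Stat3 in the second, and DESeq2 called Lifr in the second (adjusted p = 0.048). The test was edgeR's quasi-likelihood test, with Benjamini-Hochberg adjustment for the 19173 genes tested and calls at an adjusted p under 0.05. Lifr (ENSMUSG00000054263, chr15:7090614-7197489 on mm10, plus strand) had 173 and 170.2 CPM in D1 cells beside 109 and 112 in D3 cells, and 228 and 127 in D8 cells beside 123 and 91.9 in D10 cells. Every ML-792 library was below every control library, but the highest of them, D10 replicate 1, came close to the lowest control, D8 replicate 2. The log2 fold change was -0.63 ± 0.25 (SE) at D3 against D1 (adjusted p = 0.14) and -0.72 ± 0.25 at D10 against D8 (adjusted p = 0.084). The second value rests on which D8 library is used. Without D8 replicate 2 it was -1.11 ± 0.17 (adjusted p = 0.010), and without D8 replicate 1 it was -0.24 ± 0.17 (adjusted p = 0.33). For the first exposure, Lifr passed without either D8 library (adjusted p = 0.021 and 0.022), and with no filter on low counts it passed in both (adjusted p = 0.0036 and 0.00050). Lifr has the lowest GC content of the members, 44.4% over its longest transcript, and its level in D8 replicate 2 was 0.84 lower than in D8 replicate 1 on the log2 scale. The part of GC content in that gap was not tested, but with offsets for GC content and gene length Lifr passed in both exposures (adjusted p = 0.014 and 0.0070).

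Il6st (ENSMUSG00000021756, chr13:112464070-112510086, plus strand) had 94.0 and 112 CPM in D1 cells beside 85.3 and 105 in D3 cells, and 127 and 116 in D8 cells beside 112 and 100.5 in D10 cells. D1 and D3 overlapped, and the D10 libraries lay just under those of D8. Its differences were the smallest among the members in both exposures, -0.12 ± 0.15 (adjusted p = 0.67) and -0.20 ± 0.15 (adjusted p = 0.42). Il6st was called in no alternative processing of either exposure. Without D8 replicate 2 its second difference was -0.29 ± 0.18 (adjusted p = 0.35).

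Jak1 (ENSMUSG00000028530, chr4:101152367-101265282, minus strand) had 65.0 and 96.9 CPM in D1 cells beside 55.0 and 66.3 in D3 cells, and 73.9 and 79.4 in D8 cells beside 54.0 and 70.8 in D10 cells. The D1 pair was the widest of the 4, at 80.9 ± 22.6 CPM (SD, n = 2), and it overlapped D3. The log2 differences of Jak1 were -0.42 ± 0.21 (adjusted p = 0.24) and -0.30 ± 0.21 (adjusted p = 0.38), the second being -0.27 ± 0.25 without D8 replicate 2 (adjusted p = 0.55).

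Stat3 (ENSMUSG00000004040, chr11:100885098-100939540, minus strand) had 109 and 124 CPM in D1 cells beside 98.9 and 105 in D3 cells, and 130.0 and 146 in D8 cells beside 106 and 107 in D10 cells. The groups did not overlap in either exposure, but the D1 and D3 libraries nearest each other were close. Stat3 was at -0.19 ± 0.13 in the first exposure (adjusted p = 0.38) and -0.37 ± 0.13 in the second (adjusted p = 0.085). The second value passed without D8 replicate 1 (-0.45 ± 0.13, adjusted p = 0.043) and did not without D8 replicate 2 (-0.32 ± 0.13, adjusted p = 0.18). The RNA level says nothing of the phosphorylation of STAT3, which was not measured. Of the exon bases of Stat3, 72 are shared with Stat5a on the opposite strand, and whether counting used the strand is not given in the sources used here. Stat5a averaged 3.80 CPM, far below Stat3.

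**Figure D1:**
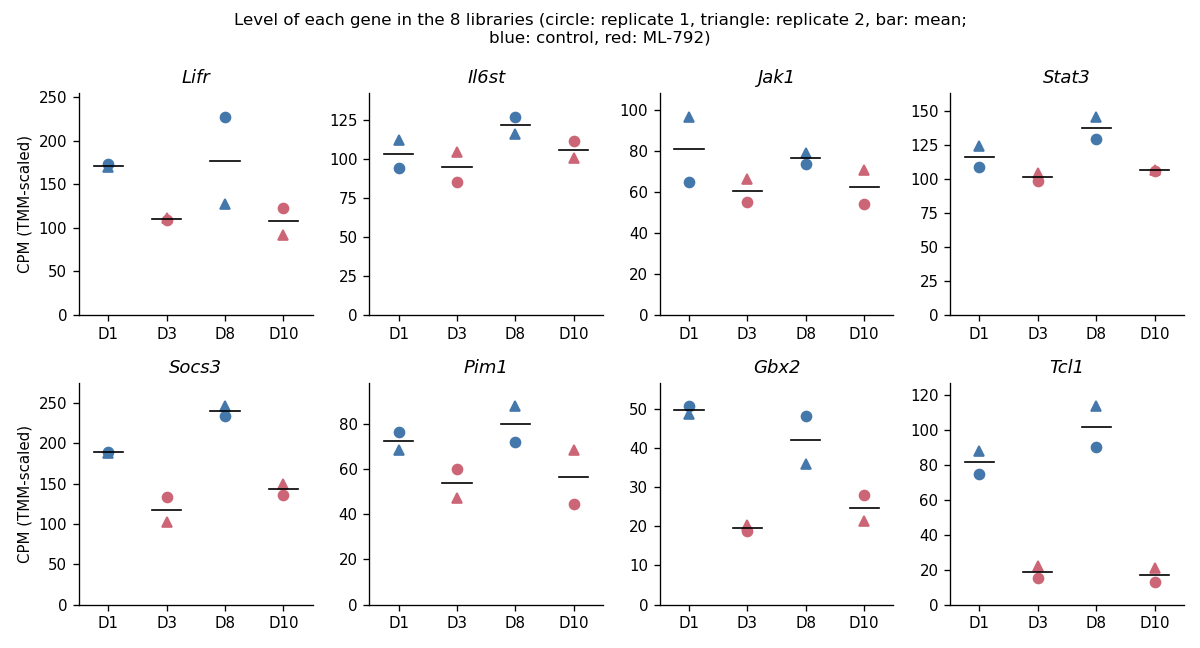
Level of each of the 8 genes in CPM after TMM scaling (vertical axes, from 0) in the 8 libraries, by group (horizontal axes). Circles are replicate 1, triangles replicate 2, bars the mean of 2 libraries, blue control and red ML-792. Tcl1 shows the widest gap, with 13.0 to 21.8 CPM in the ML-792 libraries and 74.8 to 113 in the controls.

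Socs3, Gbx2 and Tcl1 fell in both exposures, Tcl1 by 4.42-fold and then 5.97-fold, Gbx2 by 2.53-fold and 1.70-fold, and Socs3 by 1.60-fold and 1.68-fold. Pim1 was lower in both but passed in neither. At D3 against D1, 3 of the 8 members were called lower and none higher, where 5.10% of all genes tested were called lower and 13.0% in either direction. At D10 against D8, 3 were again called lower, where 7.65% of genes were called lower and 16.9% in either direction. The same 3 members were called both times, against 3.81% of genes called lower in both. All 8 log2 fold changes were negative in each exposure. Their median was -0.53 in the first, beside -0.0019 over all genes tested, and -0.61 in the second, beside 0.031. The libraries of the groups stood apart, with ML-792 lower, for 6 members at D3 against D1 (32.0% of all genes) and for all 8 at D10 against D8 (27.6% of all genes). Since the members were chosen with earlier results of these data known, the counts are a description. The fold changes for D3 against D1 and for D10 against D8 compare different libraries. Their SEs and p-values come from 1 fit of all 8 libraries with a shared estimate of the spread. The calls in the exposures are therefore not independent.

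Socs3 (ENSMUSG00000053113, chr11:117966079-117970047, minus strand) went from 189 and 188 CPM in D1 cells to 133 and 103 in D3 cells, and from 234 and 246 in D8 cells to 135 and 150.0 in D10 cells. The ML-792 libraries all lay below all controls, and the control pairs were tight, at 188.9 ± 0.79 CPM for D1 and 240.0 ± 7.99 for D8 (SD, n = 2). The log2 fold change of Socs3 was -0.68 ± 0.15 in the first exposure (adjusted p = 0.021) and -0.75 ± 0.15 in the second (adjusted p = 0.012). The first call was lost when either D1 library was left out (0.093 for replicate 1, 0.12 for replicate 2) or D3 replicate 2 was (0.15), and the second when D10 replicate 1 was (0.082). With offsets for GC content and gene length the second shrank to -0.45 and also missed the threshold (adjusted p = 0.058). Without D8 replicate 2 the second was -0.74 ± 0.16 (adjusted p = 0.028). The Socs3 window shown above is the one with the TTCNNNGAA match.

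Pim1 (ENSMUSG00000024014, chr17:29490753-29496112, plus strand) had 76.1 and 68.1 CPM in D1 cells beside 60.0 and 47.1 in D3 cells, and 71.6 and 87.5 in D8 cells beside 44.5 and 68.4 in D10 cells. D10 replicate 2 nearly reached the lower D8 library and lay above D1 replicate 2. The log2 differences of Pim1 were -0.43 ± 0.22 (adjusted p = 0.25) and -0.49 ± 0.22 (adjusted p = 0.16), and the second passed only without D10 replicate 2 (adjusted p = 0.048). Without D8 replicate 2 it was -0.37 ± 0.24 (adjusted p = 0.39). Pim1 shares 488 exon bases with the antisense gene Gm26885, which averaged 1.22 CPM, and reads of the pair cannot be told apart without strand.

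Gbx2 (ENSMUSG00000034486, chr1:89927956-89931179, minus strand) went from 50.6 and 48.8 CPM in D1 cells to 18.8 and 20.4 in D3 cells, and from 48.1 and 35.9 in D8 cells to 28.0 and 21.3 in D10 cells. The D1 and D3 pairs were both tight and far apart, while D8 replicate 2 stood nearer the ML-792 libraries than the other controls did. Gbx2 fell by 1.34 ± 0.19 on the log2 scale in the first exposure (adjusted p = 0.0048) and by 0.77 ± 0.19 in the second (adjusted p = 0.027). The first missed the threshold without D3 replicate 1 (0.051). The second missed it with replicate 2 of D1 (0.051), D3 (0.051) or D10 (0.12) or replicate 1 of D8 (0.072) left out. With GC content and length offsets it shrank to -0.48 (adjusted p = 0.20), and without D8 replicate 2 it was -0.99 ± 0.19 (adjusted p = 0.019). Gbx2 shares 946 of its 2177 exon bases with D130058E05Rik, a noncoding transcript on the opposite strand. That gene averaged 9.97 CPM and was at -0.69 ± 0.23 (adjusted p = 0.090) and -0.51 ± 0.23 (adjusted p = 0.17), so reads counted for one could come from the other.

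Tcl1 (ENSMUSG00000041359, chr12:105216750-105222793, minus strand) went from 74.8 and 87.7 CPM in D1 cells to 15.0 and 21.8 in D3 cells, and from 89.9 and 113 in D8 cells to 13.0 and 20.9 in D10 cells. No ML-792 library came within a wide margin of any control. Tcl1 fell by 2.14 ± 0.27 on the log2 scale in the first exposure (adjusted p = 0.0030) and by 2.58 ± 0.27 in the second (adjusted p = 0.0013). Its call held in all 15 alternatives in both exposures, with -2.43 ± 0.28 in the second without D8 replicate 2 (adjusted p = 0.0042). The fewest reads behind any value of a member were the 320 of Tcl1 in its lowest library, so counting error is small beside the spread between libraries.

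**Figure D2:**
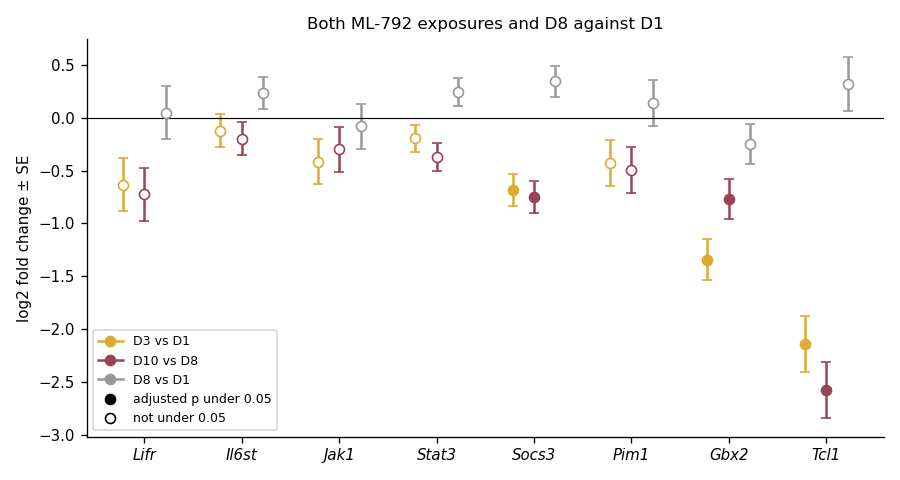
Log2 fold change of each of the 8 genes with its SE (vertical axis) for D3 against D1, D10 against D8 and D8 against D1. Filled points have an adjusted p under 0.05: Socs3, Gbx2 and Tcl1 in both exposures and none at D8 against D1.

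Between the exposures, 4 members rose. At D8 against D3 those called higher were Stat3, Socs3, Gbx2 and Tcl1, where 11.3% of all genes tested were called higher and 22.5% in either direction. The log2 fold changes were 0.44 ± 0.13 for Stat3 (adjusted p = 0.043), 1.03 ± 0.15 for Socs3 (adjusted p = 0.0026), 1.10 ± 0.19 for Gbx2 (adjusted p = 0.0054) and 2.46 ± 0.27 for Tcl1 (adjusted p = 0.0010). All 8 members had both D8 libraries above both D3 libraries, as did 31.9% of all genes. Stat3 was the least secure of the 4 and lost its call without any 1 of 7 libraries (adjusted p = 0.056 and 0.063 with replicates 1 and 2 of D1 left out in turn, 0.22 and 0.15 for those of D3, 0.065 and 0.058 for those of D10, and 0.11 for D8 replicate 2). It also lost the call with DESeq2 (0.0502) and with GC content and length offsets, where it shrank to 0.26 (adjusted p = 0.080). Gbx2 lost it without D3 replicate 1 (0.055) and with those offsets, at 0.73 (adjusted p = 0.055), while Socs3 and Tcl1 kept it in all 15 alternatives. Without D8 replicate 2 the values were 0.37 ± 0.13 for Stat3, 1.01 ± 0.16 for Socs3, 1.31 ± 0.19 for Gbx2 and 2.30 ± 0.28 for Tcl1. Lifr, at 0.68 ± 0.25 (adjusted p = 0.086), passed without D8 replicate 2 (1.06 ± 0.17, adjusted p = 0.0087), with no filter on low counts (0.00058) and with the offsets (0.0065). Il6st, Jak1 and Pim1 were not called without D8 replicate 2 (0.44 ± 0.17, 0.30 ± 0.25 and 0.44 ± 0.24), but Il6st passed with the offsets (0.029) and Pim1 with no filter (0.010). This comparison shares the D3 libraries with the first exposure and the D8 libraries with the second.

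D8 was then set beside D1, to ask whether the controls of the second exposure stood where the first began. No member was called by edgeR in this comparison, where 0.177% of all genes were called. Of the 8, 1 had an unadjusted p under 0.05, and DESeq2 called none. The member nearest the threshold was Socs3, at 0.35 ± 0.15 (adjusted p = 0.41), with both D8 libraries above both D1 libraries. Tcl1 was at 0.32 ± 0.25 (adjusted p = 0.61), Stat3 at 0.24 ± 0.13 (adjusted p = 0.48), Il6st at 0.24 ± 0.15 (adjusted p = 0.55) and Gbx2 at -0.24 ± 0.19 (adjusted p = 0.60). Lifr, Jak1 and Pim1 were at 0.05 ± 0.25, -0.08 ± 0.21 and 0.14 ± 0.22. Without D8 replicate 2 no member was called either, and the values ran from -0.13 ± 0.25 for Jak1 to 0.41 ± 0.18 for Lifr, with Socs3 at 0.31 ± 0.16, Tcl1 at 0.14 ± 0.28 and Gbx2 at -0.05 ± 0.19. With 2 libraries a group, a p that misses the threshold does not show that the levels were equal.

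The exposures themselves did not differ detectably in these genes. The difference between the second and the first response was called for no member and for 0% of all genes by edgeR, with no member at an unadjusted p under 0.05 and none called by DESeq2. The member with the smallest p was Gbx2, whose fall was 0.57 ± 0.27 smaller in the second exposure (unadjusted p = 0.063, adjusted p = 1.0), and Tcl1 was at -0.44 ± 0.36. D10 against D3 likewise gave no called member (0% of all genes), none at an unadjusted p under 0.05 and none by DESeq2. Its log2 differences ran from -0.11 for Tcl1 to 0.33 ± 0.19 for Gbx2. Against D1, the D10 libraries were called lower for Gbx2 (-1.01 ± 0.19, adjusted p = 0.012) and Tcl1 (-2.26 ± 0.27, adjusted p = 0.0024), 2 of 8 members where 4.80% of all genes were called lower and 12.8% in either direction. Gbx2 missed that call when D1 replicate 1 (0.074) or 2 (0.071) or D10 replicate 2 (0.065) was left out. Lifr, at -0.68 ± 0.25 (adjusted p = 0.12), passed it without D8 replicate 1 or D8 replicate 2 (adjusted p = 0.016 for each), with no filter on low counts (0.0025) and with GC content and length offsets (0.012).

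When the 4 ML-792 libraries were set against the 4 controls in 1 fit, 5 members were called lower, where 13.4% of all genes were called lower and 28.7% in either direction. They were Lifr (-0.68 ± 0.16, adjusted p = 0.012), Socs3 (-0.72 ± 0.14, adjusted p = 0.0037), Pim1 (-0.46 ± 0.15, adjusted p = 0.039), Gbx2 (-1.05 ± 0.15, adjusted p = 0.0010) and Tcl1 (-2.37 ± 0.19, adjusted p = 5.8e-05). Lifr, Socs3, Gbx2 and Tcl1 kept this call in all 15 alternatives. Pim1 kept it in 8, and missed it with replicate 2 of D1 (0.052) or D3 (0.11), either library of D8 (0.062 and 0.052) or D10 replicate 1 (0.10) left out. With GC content and length offsets Pim1 shrank to -0.26, alone (adjusted p = 0.11) or with a term for the replicate number (0.12). Stat3 (-0.29 ± 0.10, adjusted p = 0.053) passed without D1 replicate 1 (0.014), with DESeq2 (0.038) and with those offsets (-0.22, adjusted p = 0.027). Jak1 (-0.36 ± 0.14, adjusted p = 0.081) passed without D1 replicate 1 (0.029) or D10 replicate 2 (0.049) and with the offsets (0.024). Il6st stayed at -0.16 ± 0.12 (adjusted p = 0.33). All 4 ML-792 libraries lay below all 4 controls for 5 members, as for 14.9% of all genes. These were Lifr, Stat3, Socs3, Gbx2 and Tcl1, so not the same 5 as those called: Stat3 was not called, and Pim1 was called but overlapped. The pooled fit uses the same libraries as the single exposures and is no independent evidence.

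**Figure D3:**
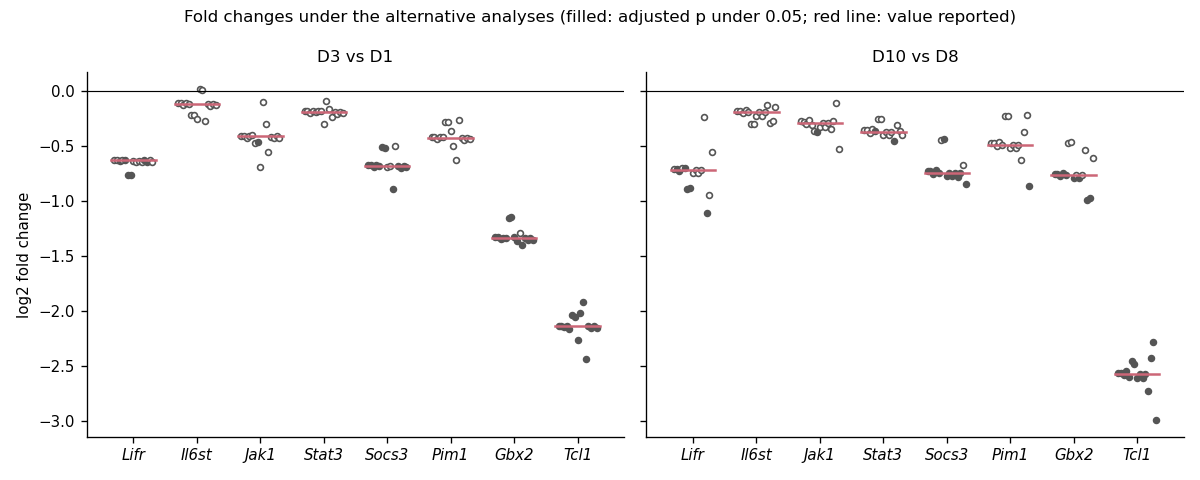
Log2 fold change (vertical axis) of each of the 8 genes under the 15 alternative analyses, for D3 against D1 and D10 against D8. Filled points have an adjusted p under 0.05 and the red line is the reported value. Tcl1 is filled throughout, and Lifr at D10 against D8 spreads from -1.11 to -0.24.

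Ordered by group mean, Stat3, Socs3 and Pim1 stood highest at D8, then D1, D10 and D3. Lifr and Tcl1 ran D8, D1, D3, D10, and Gbx2 and Jak1 ran D1, D8, D10, D3. Il6st alone had an ML-792 group, D10 at 106.1 ± 7.9 CPM, above a control group, D1 at 103.2 ± 13.0 (SD, n = 2). Neighbours within the control pair and within the ML-792 pair did not differ by the test for any member. For the step between the pairs, Gbx2 and Tcl1 alone passed in each of the 4 comparisons of an ML-792 group with a control group, while Socs3 passed in 3 and missed at D10 against D1 (-0.40 ± 0.15, adjusted p = 0.11).

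Levels were compared between genes as RPKM, that is, CPM per kilobase of exon. Over all libraries Socs3 was highest of the members at 59.6 RPKM, followed by Tcl1 at 29.6, Pim1 at 19.5, Gbx2 at 15.6, Lifr at 13.1, Stat3 at 12.2, Jak1 at 9.71 and Il6st at 9.59. In the ML-792 groups the order changed: Tcl1 dropped from 44.0 RPKM at D1 to 9.96 at D3, beside Lifr at 10.3, and from 55.0 at D8 to 9.17 at D10. Among the JAK kinases, Jak1 was above Tyk2 (6.60 RPKM), Jak3 (5.41) and Jak2 (3.14). Stat3 was above Stat6 at 7.93 and Stat2 at 4.73. Of the SOCS genes, Socs3 stood far above the next, Socs4 at 6.70. In the PIM family Pim3, at 55.8 RPKM, was above Pim1, and Pim2 was at 3.54. Of the other receptor chains that pair with gp130, Osmr, Il6ra and Cntfr were low, at 0.06, 0.56 and 2.28 RPKM.

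**Figure D4:**
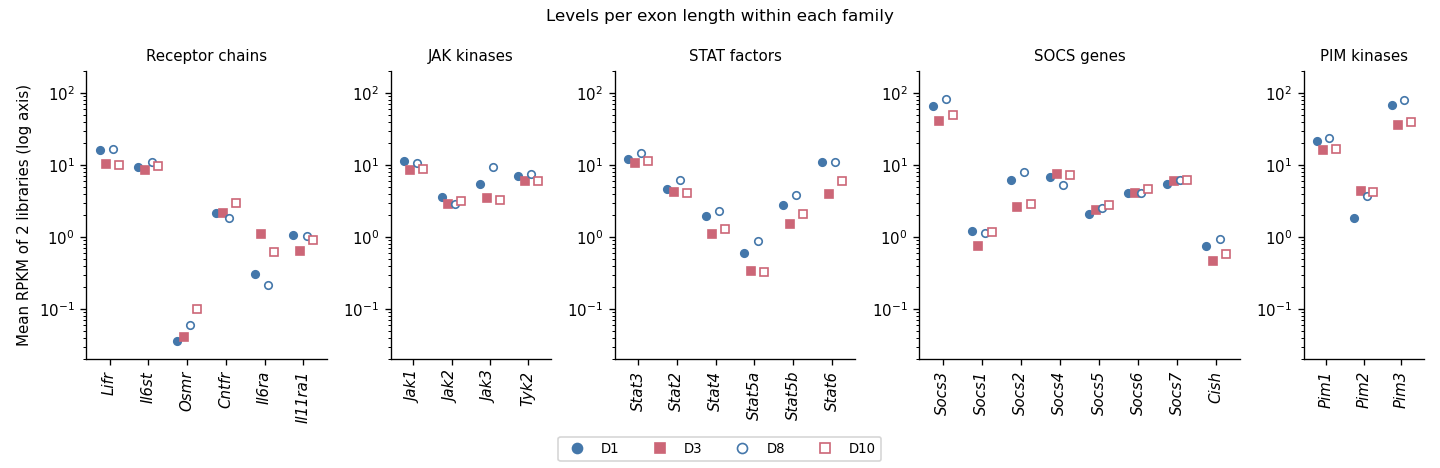
Mean RPKM (logarithmic axis) of receptor chains and of JAK, STAT, SOCS and PIM genes in each of the 4 groups (2 libraries each). Jak1, Stat3 and Socs3 are the highest of the plotted genes of their families over all libraries, and Pim3 lies above Pim1.

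The rest of the pathway was read from lists drawn up by role. Of the IL-6 family ligands, 6 of 8 were tested, and in the 2 exposures Lif alone was called: its RNA rose from 3.35 and 4.69 CPM at D1 to 6.90 and 8.39 at D3 (0.92 ± 0.25, adjusted p = 0.043), and was at 0.46 ± 0.24 in the second exposure (adjusted p = 0.23). The Lif call was lost with either library of D1 left out (0.23 and 0.090 for replicates 1 and 2), of D3 (0.12 and 0.22) or of D10 (0.059 and 0.058). Ctf1, which encodes cardiotrophin 1, was at -1.03 ± 0.32 and -1.09 ± 0.33 in the exposures (adjusted p = 0.071 and 0.052), and was called lower at D10 against D1 (-1.46 ± 0.33, adjusted p = 0.023) and in ML-792 against control (-1.06 ± 0.25, adjusted p = 0.0097). The medium itself contained LIF. Of 5 other receptor chains, Il6ra alone rose in the exposures, from 2.68 and 2.64 CPM to 11.7 and 7.56 (1.85 ± 0.37, adjusted p = 0.015) and from 2.03 and 1.67 to 3.53 and 7.08 (1.53 ± 0.38, adjusted p = 0.026). Its first call was lost with either D1 library left out (0.091 and 0.11) or D3 replicate 1 (0.11), and its second with D8 replicate 2 (0.11) or D10 replicate 2 (0.15) left out.

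Of the 9 other JAK and STAT genes, none rose in either exposure, 1 fell in the first and 3 in the second, where 5.10% and 7.65% of all genes tested fell. Their median log2 fold change was -0.64 and then -0.85, beside -0.53 and -0.61 for the 8 members, so a lower level was not particular to the members. In ML-792 against control 5 of the 9 were called lower (Jak3, Stat4, Stat5a, Stat5b and Stat6), beside 13.4% of all genes. The same 5 were called higher at D8 against D3, beside 11.3% of all genes. Stat6, the STAT of interleukin-4 signalling, fell in both exposures (-1.49 ± 0.20, adjusted p = 0.0042, and -0.86 ± 0.20, adjusted p = 0.022). In the second, Jak3 fell as well, from 48.2 and 52.7 to 16.6 and 18.3 CPM (-1.53 ± 0.20, adjusted p = 0.0026), and so did Stat5a at its low level (-1.44 ± 0.29, adjusted p = 0.012). The second call of Stat6 was lost without D8 replicate 2 (0.066) or D10 replicate 1 (0.13), and that of Stat5a without the same libraries (0.053 and 0.072). Of 15 negative regulators, which include the other SOCS genes, the phosphatases and the PIAS genes, Socs2 fell in both exposures and the other 14 passed in neither, so 1 of 15 stood near those shares of all genes. Socs2 went from 46.9 and 69.2 CPM to 28.2 and 21.8 (-1.22 ± 0.24, adjusted p = 0.013), and from 88.3 and 62.4 to 27.5 and 27.4 (-1.46 ± 0.24, adjusted p = 0.0057). Its first call was lost with D1 replicate 2 left out (0.11) or either D3 library (0.056 and 0.097).

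Of 22 other genes reported as LIF or STAT3 targets in mouse embryonic stem cells, 7 fell and 1 rose at D3 against D1, and 8 fell and 1 rose at D10 against D8. Over all genes tested, 5.10% fell and 13.0% changed in either direction in the first, and 7.65% and 16.9% in the second. Klf4, Klf5, Tfcp2l1, Pim3, Bcl3, Klf13 and Sgk1 fell in both, and Klf2 joined them in the second. The median log2 fold change was -0.41 and -0.35 over the 22, beside -0.0019 and 0.031 over all genes. Tfcp2l1, which encodes a transcription factor that links LIF to the naive network, went from 497 and 494 CPM to 189.9 and 223 (-1.26 ± 0.13, adjusted p = 0.0021), and from 677 and 613 to 128 and 139 (-2.27 ± 0.14, adjusted p = 0.00038). The kinase gene Sgk1 went from 474 and 452 CPM to 115 and 102 (-2.09 ± 0.15, adjusted p = 0.00086), and from 455 and 431 to 96.2 and 75.7 (-2.37 ± 0.15, adjusted p = 0.00038). Both kept their calls in all 15 alternatives. Klf4, a pluripotency factor, went from 155 and 141 CPM to 89.7 and 90.9 (-0.72 ± 0.15, adjusted p = 0.020), and from 185 and 152 to 58.0 and 71.0 (-1.38 ± 0.16, adjusted p = 0.0017). Its relative Klf2 was at -0.79 ± 0.26 in the first exposure (adjusted p = 0.080, and 0.039 and 0.035 with D10 replicate 1 or 2 left out and 0.036 with DESeq2), and in the second fell from 86.2 and 111 CPM to 21.2 and 35.7 (-1.79 ± 0.26, adjusted p = 0.0039).

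Pim3, the most abundant PIM gene, went from 161 and 164 CPM to 83.9 and 92.6 (-0.88 ± 0.17, adjusted p = 0.012), and from 166 and 223 to 88.4 and 104 (-1.02 ± 0.17, adjusted p = 0.0060). Among the genes called in the exposures, 2 went the other way. Pim2 rose in the first from 4.83 and 5.50 to 12.3 and 12.2 CPM (1.24 ± 0.27, adjusted p = 0.021). The growth regulator Myc rose in the second (0.75 ± 0.18, adjusted p = 0.024), where the largest value of the 22, 1.33, belonged to a gene that was not called. In ML-792 against control 2 of the 22 were called higher, Nr0b1 and Mcl1, and 9 lower, beside 28.7% of all genes called in either direction. At D10 against D1, Pim2, Fos and Zfp36 were called higher and 7 lower, beside 12.8%. The number called among the 22 depended on single libraries. In the first exposure it fell from 8 to 2 with either D1 library or D3 replicate 1 left out and to 3 without D3 replicate 2, and in the second from 9 to 5 without D10 replicate 1. Klf4, Pim3 and Pim2 were among those lost in the first exposure without each of these 4 libraries (adjusted p between 0.058 and 0.13), and so was Bcl3 (0.070 to 0.14). Klf5 was lost there without any 1 library of D1, D3 or D10 (0.062 to 0.24), and Klf13 without either D1 library or D3 replicate 1 (0.092 to 0.22). In the second exposure Klf5 was lost without either D10 library (0.059 and 0.072) and Klf13 without D10 replicate 1 (0.067). Bcl3 was lost there without D8 replicate 2 (0.065) or either D10 library (0.062 and 0.082) and with GC content and length offsets, where it shrank to -0.47 (0.088). Myc was lost in the second with replicate 1 of D3 (0.052) or D10 (0.15) or either D8 library left out (0.0502 and 0.070).

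**Figure D5:**
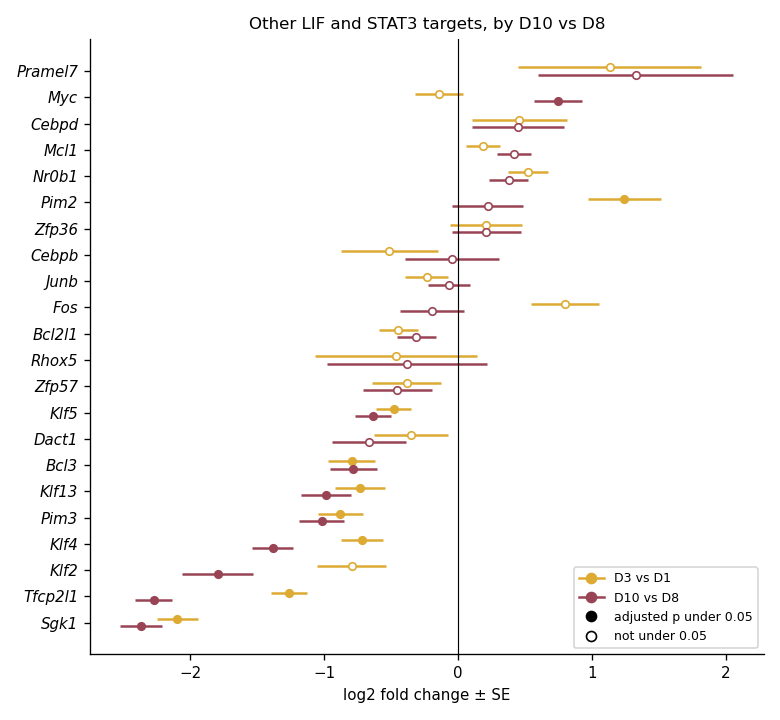
Log2 fold change with its SE (horizontal axis) of the 22 other LIF and STAT3 targets in the first exposure (D3 against D1) and the second (D10 against D8), ordered by the second. Filled points have an adjusted p under 0.05. Sgk1 and Tfcp2l1 lie lowest, and Pim2 and Myc are the filled points above 0.

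In the other branches below gp130, 1 and then 2 of 12 genes of PI3K and AKT signalling were called, and 1 of 11 genes of MAPK signalling each time, beside 13.0% and 16.9% of all genes. Of 12 genes of the PI3K and AKT branch, the transcription factor gene Tbx3 fell 2.01-fold (adjusted p = 0.0046) and then 2.24-fold (adjusted p = 0.0022), and Pik3r1 was called higher in the second (0.78 ± 0.23, adjusted p = 0.049), a call lost with either library of D3 (0.091 and 0.084) or D10 (0.13 and 0.15) or D8 replicate 2 (0.21) left out and with GC content and length offsets (0.053). Of 11 genes of the MAPK branch, Spry4, which encodes a feedback inhibitor of that branch, rose in both (0.93 ± 0.14, adjusted p = 0.0053, and 0.89 ± 0.14, adjusted p = 0.0046). It went from 127 and 145 to 260.4 and 257 CPM and from 125 and 149 to 253 and 256. Spry4 lost its first call without D1 replicate 1 (0.057), and Tbx3 was called in both exposures in all 8 fits that left out 1 library. Of the relatives of Tcl1, Gbx2 and Pim1, 4 were tested, and Pim2 and Pim3 are those described above.

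The nearest tested genes on either side of each member were read as neighbours on the chromosome. At Socs3, Pgs1 lies 16245 bases away and was at -0.21 ± 0.16 and -0.15 ± 0.16 in the exposures. On its other side Gm11725, at a mean of only 0.28 CPM, was at -1.96 ± 0.64 (adjusted p = 0.080) and -1.69 ± 0.71 (adjusted p = 0.14). At Gbx2, Agap1 was at 0.10 ± 0.14 and 0.03 ± 0.14. At Tcl1, Glrx5 was at 0.04 ± 0.16 and -0.06 ± 0.16, whereas Tunar, 111077 bases to the other side, was called lower in the first exposure (-1.69 ± 0.44, adjusted p = 0.039) and not in the second (-0.69 ± 0.42, adjusted p = 0.30). Beside Stat3, Cavin1 fell in both (-0.69 ± 0.16, adjusted p = 0.026, and -0.72 ± 0.16, adjusted p = 0.018). Map3k1, next to Il6st, was called lower in the second exposure (-0.63 ± 0.15, adjusted p = 0.023). The neighbours of Lifr, Jak1 and Pim1 were called in neither exposure.

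The genes whose log2 CPM followed each member most closely over the 8 libraries were taken from 12678 genes by Pearson r, as a description: the libraries share depth, GC trend and exposure, and so many candidates give high values. For Tcl1 they were Acap1 (0.998), Ptgfrn (0.996) and Hebp2 (0.995), for Gbx2 Zbtb14 (0.996), Ripply3 (0.986) and Nkx6-3 (0.979), and for Socs3 Tns2 (0.992), Bhlhe40 (0.991) and Coro1a (0.988). For Lifr they were Spata7 (0.988), Ddx4 (0.985) and C2cd5 (0.974), and for Stat3 Cfap43 (0.994), Fads1 (0.992) and Zswim1 (0.989). For Jak1 they were Lyn (0.983), Rnf19a (0.973) and Bckdhb (0.962), for Pim1 Mif4gd (0.983), Lefty2 (0.976) and Haghl (0.966), and for Il6st Gna13 (0.952), Exoc6b (0.951) and Igf1r (0.943). Among the members themselves, r was highest for Lifr with Gbx2 (0.89) and lowest for Il6st with Pim1 (0.13).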

How the data were processed

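The authors deposited raw counts, whole numbers of reads per Ensembl gene. Per the submitters' processing notes, bcl2fastq 2.17.1.14, STAR 2.5.0a, featureCounts and the build mm10 were used, while neither the annotation nor the strand and multi-mapping settings are given there. The molecule is labelled polyA RNA, but the extract protocol names a stranded total RNA kit with rRNA removal. Symbols and coordinates came from GENCODE M21 (36901 of 36920 identifiers matched).

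Counts were fitted with edgeR 4.0.16 in R 4.3.3 (TMM, filterByExpr, 19173 genes, quasi-likelihood test, 2-sided, 4 residual degrees of freedom, biological coefficient of variation 19.6%). The 4 groups shared 1 fit, and ML-792 against control was a separate one. The SE is the log2 fold change divided by the square root of F. Log2 CPM for likeness used a prior count of 2. Replicates of every group differed beyond counting noise. The procedure was tested on simulated data.

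The members, lists and the rule for named genes were chosen with earlier results of these data known. The rule named all members, up to 4 called genes per list by size of change, the 3 genes most like each member (predicted genes left out), and its nearest tested neighbours. Osmr, Cntfr, Il11ra1, the family genes ranked by RPKM and the marker genes were added to show levels. Klf5, Bcl3, Klf13, Myc, Nr0b1, Mcl1, Fos, Zfp36, Stat4 and Stat5b were named after their values were seen. The 15 alternatives were RLE size factors, DESeq2 1.42.0, 2 other filters, a replicate block, GC content and length offsets (both alone and with the block) and leaving out each of the 8 libraries. The counts of other targets without each library were added after seeing the data.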

Additional observations from a re-analysis of the deposited data

Results flagged for a closer look

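Gbx2 in D8 replicate 2 stood apart from the other control libraries, at 35.9 CPM against 48.1, 48.8 and 50.6, with a gap to the nearest of them that takes up most of the range of the 4. Chance singles out about 1 in 20 such groups, and 8 genes were examined in the control and in the ML-792 libraries. The same library carries the GC trend given in the report, and the part of that trend in the Gbx2 value was not tested.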

How the results depend on the processing

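Over the 8 members, 8 comparisons and 15 alternatives, 884 of 960 values kept their direction and side of the threshold, 43 passed where the reported value did not, 33 no longer passed, and 0 changed direction with a call on either side. RLE size factors and the stricter filter moved no member's call.

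The genes called at D3 against D1 were 2496, and 3847 with no low-count filter. At D8 against D1, 34 became 418 with DESeq2, 973 with no filter, 21 with the stricter filter and 64 with GC content and length offsets. At D10 against D3, 0 became 73 with DESeq2 and 373 with no filter, at D10 against D1 2462 became 3775 with no filter, and for the difference between responses 0 became 3 with DESeq2 and 66 with no filter. The cause was not tested.

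Same-numbered libraries of 2 groups deviated together across genes (r from 0.101 to 0.498), but each group has only 2 numbers and no label ties them, so the replicate number was no term of the reported fit. With the replicate block, the genes called were 4187 at D3 against D1, 5298 at D10 against D8, 535 at D8 against D1, 6547 at D8 against D3, 28 at D10 against D3 and 4100 at D10 against D1, and 5 members were called at D10 against D8. With the block and the GC content and length offsets together, these counts of genes were 5023, 5525, 534, 6567, 63 and 5085, and the members called were 5 at D3 against D1, 7 at D8 against D3 and 4 at D10 against D1. Under the block alone, Lifr passed in both exposures (adjusted p = 0.040 and 0.022) and Stat3 in the second (0.034), and in ML-792 against control Jak1 (0.016) and Stat3 (0.041) passed.

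Leaving out 1 library gave 363 to 3209 genes called and 2 to 4 members at D3 against D1, with 669 and 363 genes for replicates 1 and 2 of D1 and 588 and 1101 for those of D3. At D10 against D8 it gave 1407 to 4326 genes and 2 to 4 members, with 1802 for D8 replicate 2 and 1407 and 1980 for replicates 1 and 2 of D10. The ranges were 0 to 339 genes at D8 against D1 (339 without D8 replicate 1), 1522 to 5826 genes and 2 to 4 members at D8 against D3 (1522 without D3 replicate 1), 557 to 3244 genes and 1 to 3 members at D10 against D1 (557 without D1 replicate 1), and 4126 to 5646 genes and 4 to 7 members for ML-792 against control. A group left with 1 library is assumed to vary like the others. Among the 22 other targets the counts were 2 to 10 in the first exposure and 5 to 9 in the second. No member was called at D8 against D1, at D10 against D3 or in the difference between responses without any 1 library.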
